A study of Rattus norvegicus with 4 samples.

Results

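The neuronal microtubule and neurofilament genes are the tubulins, the stathmins, the microtubule-associated proteins, the plus-end proteins, the kinesin motors with their light chains, and the neurofilament subunits. They were chosen by name only, as the rows with a numeric gene ID whose symbol belongs to these families, and 61 rows met it, among 13984 rows with a gene ID and 17445 rows in all. The study asked how prenatal exposure to bisphenol A (BPA), a plastic monomer with estrogenic activity, alters the hippocampus of newborn rats, and the growth of neurites was among its questions. RNA was sequenced from Wistar rat hippocampi on postnatal day 1. The dams, 10 weeks old according to the sample records, received BPA at 5000 µg/kg body weight or vehicle every day by intragastric administration, from gestational day 1 until they gave birth.

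The 4 groups were male control (vehicle), male BPA, female control (vehicle) and female BPA. Each group is represented by 1 library, and each library is a pool of 3 hippocampi, so no group has a replicate library. The study states that its replicates came from independent litters, and whether the male and female pools of a treatment share litters is not given in the sources used here. The 2 libraries of a treatment differ in sex, so a p-value over both sexes measures only the spread between these pools. The values are FPKM, the fragments per kilobase of transcript relative to the sequencing depth of the library. Some differences between libraries changed direction under other scalings, which are given below. Low values are spaced by whole fragments, and this spacing corresponds to about 8660000 to 8920000 fragments per library, so that 1 FPKM of a transcript of 1 kb equals 8.14 to 8.26 fragments. Where 4 values of a gene follow each other, they belong to male control, male BPA and then the female libraries, control before BPA.

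Microtubules are hollow polymers of α- and β-tubulin dimers, and they form the core of axons and dendrites. γ-tubulin starts new microtubules, structural microtubule-associated proteins (MAPs) stabilise and space them, stathmins bind free tubulin dimers and favour disassembly, and plus-end proteins ride on the growing tips. Kinesins walk along microtubules and carry vesicles, organelles and RNA, while the mitotic kinesins build and move the spindle of dividing cells. Neurofilaments are the intermediate filaments of neurons, and the share of the heavy subunit increases as axons mature and thicken. At birth the hippocampus still adds neurons in the dentate gyrus, and pyramidal neurons extend axons and dendrites.

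All 4 libraries listed 60 of the 61 genes, and 58 passed a filter on low values, a mean of at least 1 FPKM over the 4 libraries. Kif12 was listed for the males alone, at 0.01 and 0.05 FPKM. Tuba3b, an α-tubulin, was at 0.08 FPKM in both control libraries and at 0.01 FPKM, the lowest value listed, in both BPA libraries. Kif9, a kinesin of motile cilia, was at 1.37 FPKM under vehicle and 0.59 under BPA in males and at 1.10 and 0.59 in females, a mean under 1. It lies outside the rule for named genes and was picked out after its values were seen. The Kif9 values rest on few fragments, 28.0 in male control, and the ratio of BPA to control was 0.431 in males (95% counting interval 0.199 to 0.874) and 0.536 in females (0.242 to 1.13).

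Several α- and β-tubulins were, with Stmn1, the most abundant members, while others lay far lower. Tuba1a, the main α-tubulin of young neurons, was at 7463 FPKM under vehicle and 7911 under BPA in males and at 6938 and 8228 in females, and it had the highest value of all rows in each of the 4 libraries. Tubb2b, a β-tubulin needed for neuronal migration, was at 3406, 3741, 2809 and 3488 FPKM, and ranked 2 in both male and 3 in both female libraries. Tubb5 lay between 1363 and 1711 FPKM, Tubb3, the β-tubulin used as a marker of neurons, between 1149.8 and 1412, Tubb2a between 909.6 and 1142, and Tuba1b between 636 and 708. The ranges of Tubb5 and Tubb3 overlapped, although Tubb5 was the higher in every library, and the highest Tubb2a value lay under the lowest of Tubb3. Below them came Tuba1c (406 to 491 FPKM), Tubb4b (149.5 to 192), Tubb4a (138 to 184), Tuba4a (17.0 to 20.2), Tubb6 (7.92 to 10.0) and Tuba8 (0.80 to 1.29). The 13 α- and β-tubulins together held 3.84% of all FPKM under vehicle and 4.09% under BPA in males, and 3.52% and 4.0% in females.

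Stmn1, the stathmin of dividing and migrating cells as well as young neurons, ranked below Tuba1a and Tubb2b and above every other member in all 4 libraries, at 1692, 1803, 1879 and 2419 FPKM. Stmn2, a neuronal stathmin of growth cones, lay between 817 and 926 FPKM. Among the MAPs, Mapt, which encodes tau, had the highest level, between 455 and 488 FPKM. Map1b, the MAP of growing axons, followed at 346 to 371 FPKM, and Map2, the MAP of dendrites, at 187 to 214. Map1a, which takes the place of Map1b in mature neurons, lay between 29.2 and 39.6 FPKM, so that Map1b was 8.73 to 12.4 times as high as Map1a. Of the plus-end proteins, Mapre2 (226 to 258 FPKM) lay above Mapre1 (148 to 169) and Mapre3 (43.0 to 52.6) in every library.

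Of the neurofilament subunits, Ina, which encodes α-internexin and precedes the others in development, was the highest, between 103 and 124 FPKM. Nefm and Nefl, the medium and light subunits, lay between 42.2 and 54.9 FPKM and between 34.0 and 52.2 FPKM, and their ranges overlapped. Nefh, the heavy subunit of mature axons, was at 1.37 to 2.86 FPKM. Of the transport motors, Klc1, a light chain of kinesin-1, was at 253 to 283 FPKM and Kif5c, a neuronal heavy chain of kinesin-1, at 219.5 to 229.7. Kif1b, Kif5a and Kif3c followed, from 128 down to 97.9 FPKM, with overlapping ranges of Kif5a and Kif3c. The 9 mitotic kinesins were low, and their summed level was 28.0 to 31.5 FPKM.

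**Figure D1:**
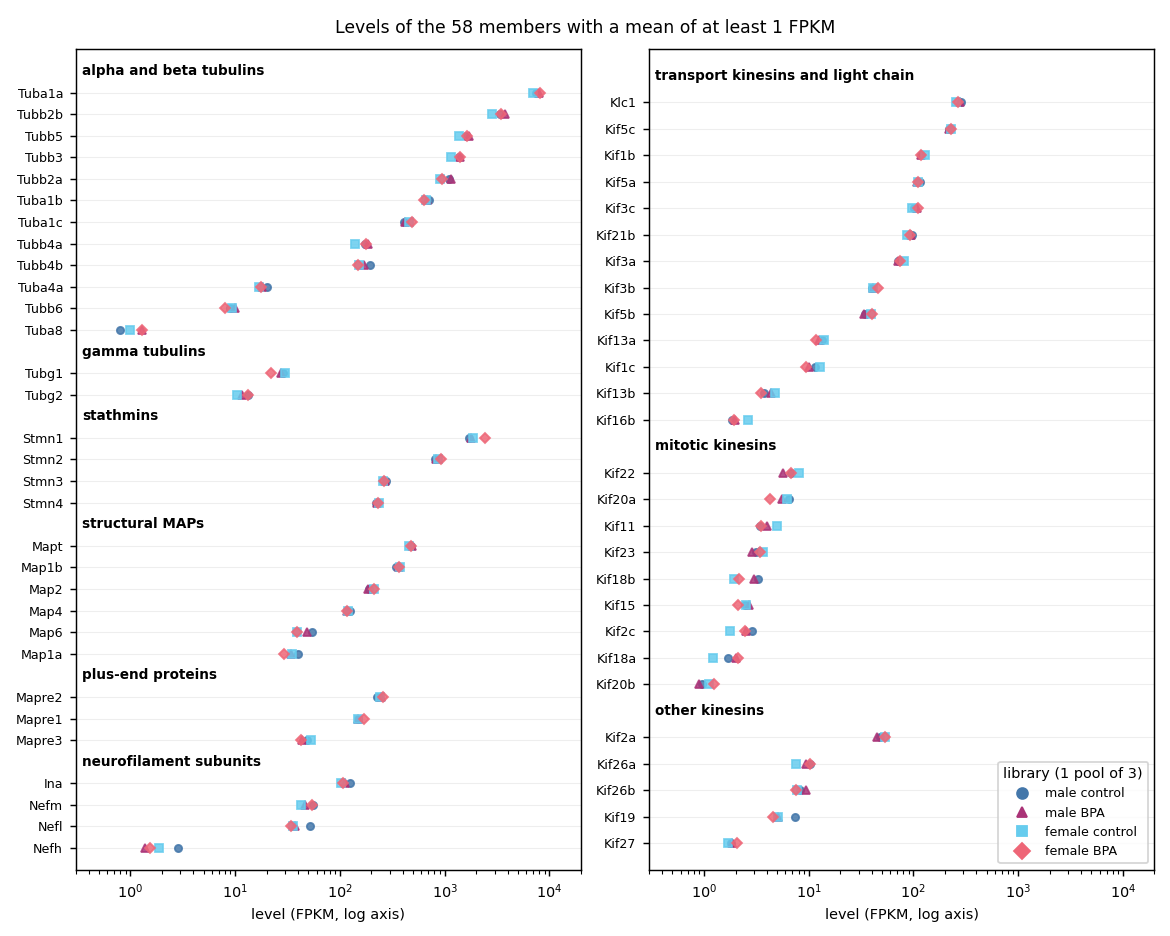
Level of each of the 58 members with a mean of at least 1 FPKM, in FPKM on a log axis, grouped by role, with 1 point per library (blue circle male control, purple triangle male BPA, light blue square female control, red diamond female BPA). Within a member the 4 points lie close together compared with the distance between members, which runs from about 1 FPKM (Tuba8) to 8228 FPKM (Tuba1a in female BPA).

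RefSeq holds promoter windows for 48 of the 61 members in the rat assembly GRCr8, with 51 windows of 250 bases before the transcription start. The 4 tubulins printed here are the most abundant α-tubulin, the β-tubulins Tubb2b and Tubb2a, which lie near each other with 1 coding gene between them and differed in pattern with BPA, and the neuronal Tubb3. The last 150 bases before the start are given 5′ to 3′ on the strand of the gene, with matches on either strand in capitals. The letters searched were TATAAA for the TATA box, CCAAT for the box of that name, GGGCGG for the GC box and TGACGTCA for the palindrome of the cAMP response element. No printed match overlaps another.
Tuba1a, chr7:131995820-131995969, minus strand: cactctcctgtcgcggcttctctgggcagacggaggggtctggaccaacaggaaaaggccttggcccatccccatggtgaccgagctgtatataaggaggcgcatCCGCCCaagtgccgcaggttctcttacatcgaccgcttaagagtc
Tubb2b, chr17:30952936-30953085, plus strand: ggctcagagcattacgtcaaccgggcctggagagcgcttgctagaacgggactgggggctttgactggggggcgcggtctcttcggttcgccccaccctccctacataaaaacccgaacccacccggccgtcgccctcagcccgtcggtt
Tubb2a, chr17:31002036-31002185, plus strand: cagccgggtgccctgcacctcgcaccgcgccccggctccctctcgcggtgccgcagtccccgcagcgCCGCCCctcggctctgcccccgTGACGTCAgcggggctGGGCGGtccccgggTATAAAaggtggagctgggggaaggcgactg
Tubb3, chr19:68365537-68365686, plus strand: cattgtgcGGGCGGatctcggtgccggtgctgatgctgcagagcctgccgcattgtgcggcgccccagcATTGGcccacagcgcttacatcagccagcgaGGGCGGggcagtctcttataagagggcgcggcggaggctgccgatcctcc
The Tubb2a window holds a TATA box, a GC box on each strand and the cAMP response element, while the Tubb2b window holds none of them in these 150 bases. Over 250 bases, the GC box was found in 68.6% of the members' windows and in 30.5% of all 33469 rat windows. The CCAAT box was found in 43.1% against 34.0%, and the TATA box in 13.7% against 12.9%. The cAMP response element was found in 11.8% against 1.59%, in 6 windows of Kif15, Kif5c, Klc1 and Tubb2a, and several of these windows belong to Klc1. These matches are descriptions of the letters and do not show that a factor binds.

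The question of the design was which of these genes differ between BPA and control. No member passed the test over both sexes (limma on log2(FPKM + 1), 2 BPA against 2 control libraries, Benjamini-Hochberg adjusted p under 0.05), and neither did any other of the 13542 rows tested (0%). The smallest adjusted p of a member was 0.973. Without adjustment, limma called 0 of the 58 members at p under 0.05, where it called 637 rows (4.70%). With sex as a covariate, 6 of 58 members reached an unadjusted p under 0.05, Tubb4a, Tubg1, Map1a, Mapre3, Nefl and Kif1c, against 8.98% of all rows, and the smallest adjusted p was 0.495. An exact permutation test of 2 against 2 libraries cannot give a two-sided p below 0.333. What follows therefore describes values of single pools. Of differences of 0.5 on the log2 scale put into simulated data of this size, limma recovered 1%, and of differences of 1 it recovered 86%.

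Both BPA libraries lay above both control libraries for 11 of the 58 members (19.0%, against 13.3% of rows with a gene ID), and below both for 10 members (17.2%, against 20.2%). With median centring the latter count was 8, since Map4 and Kif5a overlapped. The median log2 difference between BPA and control over the members was -0.02 in males and 0.02 in females, against -0.00 and -0.04 over all 10857 rows with a gene ID. Both medians lay near 0, and the values differed by role.

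Among the α- and β-tubulins, 6 of the 12 tested had both BPA libraries above both controls, and none had both below. The 6 were Tuba1a, Tuba8, Tubb2b, Tubb3, Tubb4a and Tubb5. Over rows with a gene ID the shares were 13.3% above and 20.2% below. Under the quantile normalization described below, Tuba1a, Tubb2b, Tubb3 and Tubb5 left the first count, and Tuba1b had both below. Tuba1a, with the values given above, was 1.06 times as high with BPA in males (95% counting interval 1.05 to 1.07) and 1.19 times as high in females (1.18 to 1.20). These intervals come from the estimated fragments, and they cover counting error only, not the differences between pups. Over both sexes the log2 difference of Tuba1a was 0.17 with a standard error of 0.13 (limma, adjusted p = 0.973). Tubb2b was 1.10 times as high in males (1.08 to 1.11) and 1.24 times in females (1.23 to 1.26), with a log2 difference of 0.22 ± 0.14 (SE) over both. The lowest value of each of these genes was in the female control library, and its distance from the other 3 libraries was larger than the distance between the males.

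Tubb5, the β-tubulin shared by neurons and dividing cells, was at 1594, 1711, 1363 and 1643 FPKM. Tubb3 was at 1364, 1412, 1149.8 and 1397 FPKM, 1.04 times as high with BPA in males (1.02 to 1.06) and 1.22 times in females (1.19 to 1.24). Tubb4a, a β-tubulin of brain, was at 173, 184, 138 and 177 FPKM, and its female ratio of 1.28 (1.21 to 1.35) was the highest of the tubulins with more than a few fragments. For Tubb3, Tubb4a and Tubb5 the female BPA library lay between both male libraries and the female control library lay below all 3. Without the female control library the log2 difference over both sexes was 0.04 for Tubb3, 0.06 for Tubb4a, 0.07 for Tubb5, 0.08 for Tubb2b and 0.11 for Tuba1a. Tuba8 was at 0.80, 1.28, 0.98 and 1.29 FPKM, about 10.0 fragments in male control, and its intervals reached from 0.683 to 3.94 in males and from 0.584 to 3.05 in females.

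In the other α- and β-tubulins tested the BPA and control libraries overlapped. Tuba1c was at 406, 415, 454 and 491 FPKM, higher with BPA in each sex. Its ratios were 1.02 (0.976 to 1.07) in males and 1.08 (1.03 to 1.13) in females, and both female libraries lay above both male ones. Tuba4a and Tubb6 differed by less than counting error in each sex. Tuba1b, which lies next to Tuba1a with no coding gene between them in the RefSeq order, was at 708, 683, 659 and 636 FPKM, lower with BPA in each sex, with ratios of 0.964 (0.937 to 0.992) and 0.966 (0.938 to 0.995), although with median centring the female log2 difference was 0.01. Tubb2a was at 1094, 1142, 909.6 and 949 FPKM, 1.04 times as high in each sex, but its values separated by sex rather than by treatment. Tubb4b was at 192, 169, 154 and 149.5 FPKM, lower with BPA in each sex, with ratios of 0.880 (0.835 to 0.927) and 0.972 (0.918 to 1.03). The ratio of Tuba1a to Tuba1b was 10.5 in both control libraries, 11.6 in male BPA and 12.9 in female BPA. Tubulin genes share long coding stretches, and RefSeq lists 14 pseudogene entries for Tuba1b, 5 for Tuba1a and 4 for Tubb4b, so how fragments were divided among these copies is uncertain.

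**Figure D2:**
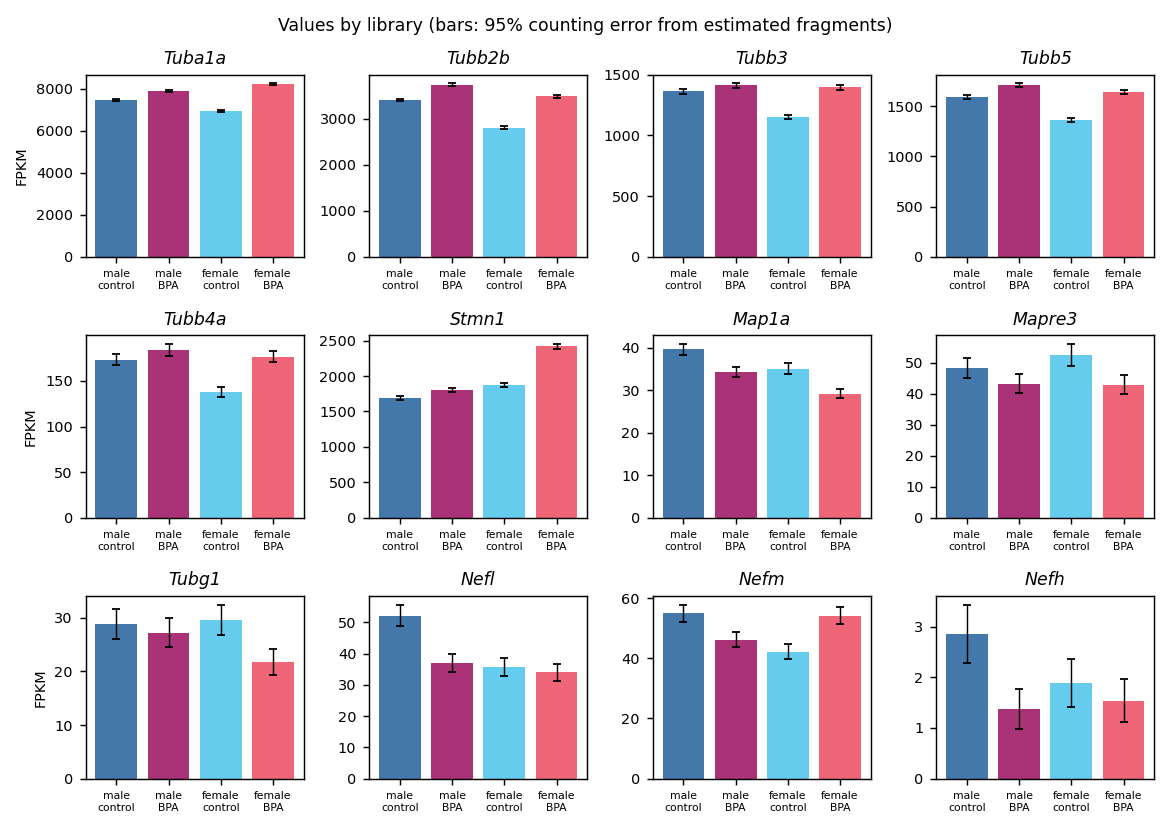
FPKM of 12 members in the 4 libraries, on axes that start at 0, with error bars of 95% counting error from the estimated fragments (they hold no biological spread). In the panels of α- and β-tubulins the female control bar is the lowest, and Stmn1 is highest in female BPA at 2419 FPKM. Map1a and Mapre3 are lower with BPA in each sex, and Nefl and Nefh are highest in male control.

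Several tubulins and Stmn1 are among the most abundant rows, and in females the difference with BPA depended on the level of a row. Over the other rows with a gene ID, the median log2 difference in females was -0.15 for rows of 1 to 5 FPKM (2490 rows), -0.06 for 5 to 20 FPKM, 0.01 for 20 to 100 FPKM, 0.07 for 100 to 500 FPKM and 0.16 for 79 rows of at least 500 FPKM. Of these 79 rows, 72 were higher in female BPA, and the 10th and 90th percentiles of the difference were 0.02 and 0.28. The 8 members of at least 500 FPKM had a female median of 0.26. Tuba1a (0.25) lay between these percentiles, Tubb3 (0.28) at the upper of them, and Tubb2b (0.31) and Stmn1 (0.36) above it. In males the median of the same rows was 0.02 and that of the 8 members 0.07. The part of the dependence on level in the tubulin differences was not tested.

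Quantile normalization, which gives each library the same distribution of values, sets the difference of Tuba1a to 0 by construction, because it is the top row of every library, and it sets Tubb2b to 0.00 in each sex since its rank does not move within a sex. Under it Tubb3 was 0.12, Tubb5 0.16, Tubb4a 0.33 and Stmn1 0.23 higher in female BPA, Tubb2a was 0.13 lower (-0.13 on the log2 scale) where it had been 0.06 higher, and the median of the α- and β-tubulins was 0.00 in females. The number of members with both BPA libraries above both controls fell from 11 to 6, with the loss of Kif3b, Tuba1a, Tubb2b, Tubb3 and Tubb5. For Tuba1a, Tubb2b and Tubb5 this loss was fixed by the method, since each has the same rank in both male libraries. Median centring, which lines up the middle of each library, gave 0.30 for Tuba1a and 0.42 for Stmn1 in females.

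**Figure D3:**
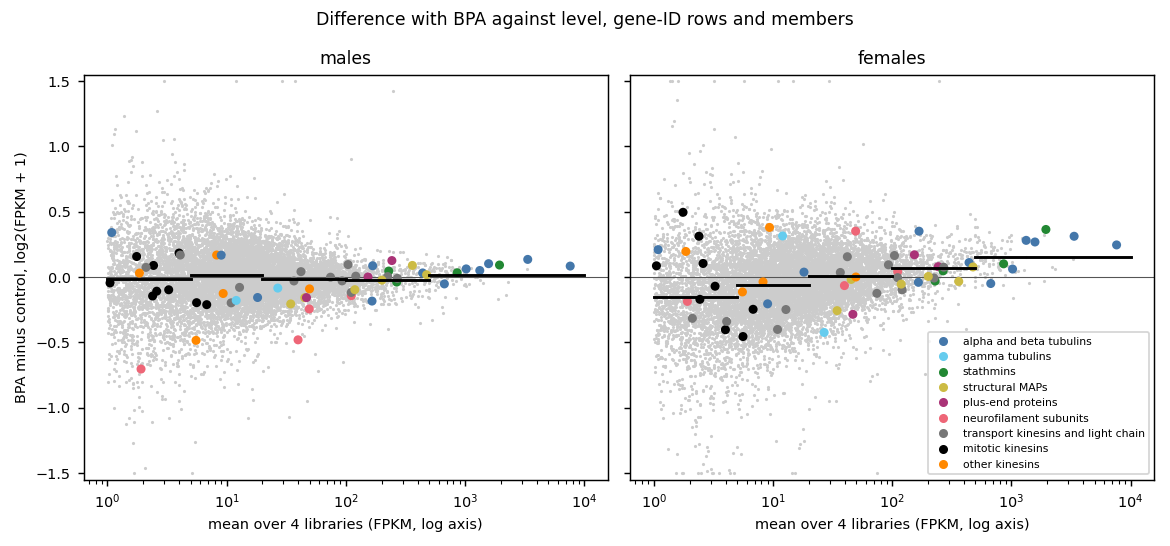
BPA minus control on log2(FPKM + 1) against the mean level (FPKM, log axis) in males and in females, with members coloured by role, other rows with a gene ID in grey (rows beyond 1.5 are drawn at the edge) and black lines for the median of the other rows within 5 ranges of level. In females the black lines rise from -0.15 at 1 to 5 FPKM to 0.16 at 500 FPKM and above, while in males they stay between -0.02 and 0.02.

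The stathmins followed Stmn1 only in part. Stmn1 was 1.07 times as high with BPA in males (1.04 to 1.09) and 1.29 times in females (1.26 to 1.31), and its values overlapped between the treatments because female control lay above male BPA. Its log2 difference over both sexes was 0.23 ± 0.16 (SE), and 0.02 without the female BPA library. Stmn2 was at 817, 836, 863 and 926 FPKM, with a female ratio of 1.07 (1.05 to 1.10), which became a log2 difference of -0.05 under quantile normalization. Stmn3 (276, 269, 258 and 266 FPKM) and Stmn4 (221, 228, 237 and 232 FPKM), the stathmins of later neurons, differed by less than counting error in each sex. The ratio of Stmn1 to Stmn2 was 2.07, 2.16, 2.18 and 2.61 in the 4 libraries, so that female BPA stood apart.

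The γ-tubulin genes went in opposite directions with BPA in females, and their levels came closer together. Tubg1, the γ-tubulin of dividing cells and centrosomes, was at 28.9, 27.2, 29.6 and 21.8 FPKM, with a female ratio of 0.737 (0.634 to 0.855) and a male ratio of 0.941 (0.818 to 1.08). Tubg2, which is enriched in brain and lies next to Tubg1, was at 13.2, 11.5, 10.4 and 13.1 FPKM, with a female ratio of 1.27 (1.02 to 1.58) and a male ratio of 0.875 (0.709 to 1.08). Tubg1 was thus 2.85 times as high as Tubg2 in female control and 1.66 times in female BPA, and the males lay between these values, at 2.2 and 2.37. Both genes share much of their coding sequence, so that their division is uncertain, and their summed level was 42.1, 38.7, 40.0 and 34.9 FPKM.

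Among the 6 structural MAPs, Map1a and Map4 had both BPA libraries below both controls, as did 20.2% of rows with a gene ID. Map1a was at 39.6, 34.2, 35.1 and 29.2 FPKM, with ratios of 0.864 (0.824 to 0.906) and 0.832 (0.791 to 0.876). Its log2 difference over both sexes was -0.23 ± 0.13 (SE; limma, adjusted p = 0.973), and male BPA lay just under female control. Map4, a MAP of many tissues, was at 124, 116, 120.4 and 116 FPKM, and with median centring its female log2 difference was 0.0025 and its libraries overlapped. Map1b was 1.06 times as high with BPA in males (1.05 to 1.08) and 0.977 times in females (0.963 to 0.991), and its female log2 difference of -0.033 became 0.023 with median centring. Mapt differed by a ratio of 1.01 in males and 1.06 in females, and Map2 by 0.984 and 1.00, so the dendritic MAP was within counting error in each sex. The summed level of the MAPs was between 1235 and 1242 FPKM in all 4 libraries.

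The plus-end proteins went different ways. Mapre3, the member most enriched in neurons, was at 48.4, 43.3, 52.6 and 43.0 FPKM, with ratios of 0.895 (0.808 to 0.990) in males and 0.817 (0.739 to 0.904) in females. The log2 difference over both sexes was -0.22 ± 0.10 (SE; limma, unadjusted p = 0.0668, adjusted p = 0.973). Mapre2 was at 226, 247, 244 and 258 FPKM, 1.09 times as high in males (1.04 to 1.14) and 1.06 times in females (1.01 to 1.10). Both BPA libraries lay below both controls for Mapre3 and above both for Mapre2. The ratio of Mapre2 to Mapre3 was 4.67 and 4.64 in the control libraries and 5.70 and 5.99 in the BPA libraries.

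All 4 neurofilament subunits were lower in male BPA than in male control, with counting intervals that left out a ratio of 1, as did those of 25.0% of rows with a gene ID in males. Nefh was at 2.86, 1.37, 1.89 and 1.54 FPKM, and its male ratio was 0.479 (0.329 to 0.688). Nefl was at 52.2, 37.1, 35.6 and 34.0 FPKM, with a male ratio of 0.711 (0.642 to 0.788). For Nefl the male control library stood apart, and the other 3 libraries lay within 34.0 to 37.1 FPKM. The log2 difference over both sexes was -0.27 ± 0.18 (SE; limma, adjusted p = 0.973), and -0.0039 without male control. Ina was at 124, 112, 103 and 106 FPKM, with a male ratio of 0.905 (0.863 to 0.950).

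In females the neurofilament subunits differed in direction. Nefm was at 54.9 FPKM under vehicle and 46.2 under BPA in males and at 42.2 and 54.1 in females, a ratio of 0.841 in males (0.779 to 0.908) and 1.28 in females (1.18 to 1.39). The female ratio was 0.815 for Nefh (0.551 to 1.20), 0.955 for Nefl (0.851 to 1.07) and 1.03 for Ina (0.978 to 1.08), all within counting error. Nefm was 19.2 and 22.3 times as high as Nefh in male and female control, and 33.7 and 35.1 times in male and female BPA. Nefl and Nefm lie side by side with no coding gene between them. The median log2 difference of the 4 subunits was -0.36 in males (-0.37 with median centring and -0.33 with quantile normalization) and -0.01 in females, and none had an adjusted p under 0.05 by limma.

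By the size of the differences within a sex, the males held few members beyond 0.25 on the log2 scale (a 1.19-fold difference). In males 1 of 58 members was higher by that measure, Tuba8, against 9.17% of rows with a gene ID, and 3 were lower, Nefh, Nefl and Kif19, against 10.2%. In females 10 were higher, Tubb2b, Tubb3, Tubb4a, Tubb5, Tubg2, Stmn1, Nefm, Kif18a, Kif2c and Kif26a, against 8.49%. A further 8 were lower in females, Tubg1, Map1a, Mapre3, Kif13b, Kif16b, Kif1c, Kif11 and Kif20a, against 19.3%. Counting intervals left out a ratio of 1 for 25 of 58 members in males (25.0% of rows with a gene ID) and 34 of 58 in females (34.9%), where abundant rows have narrower intervals.

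**Figure D4:**
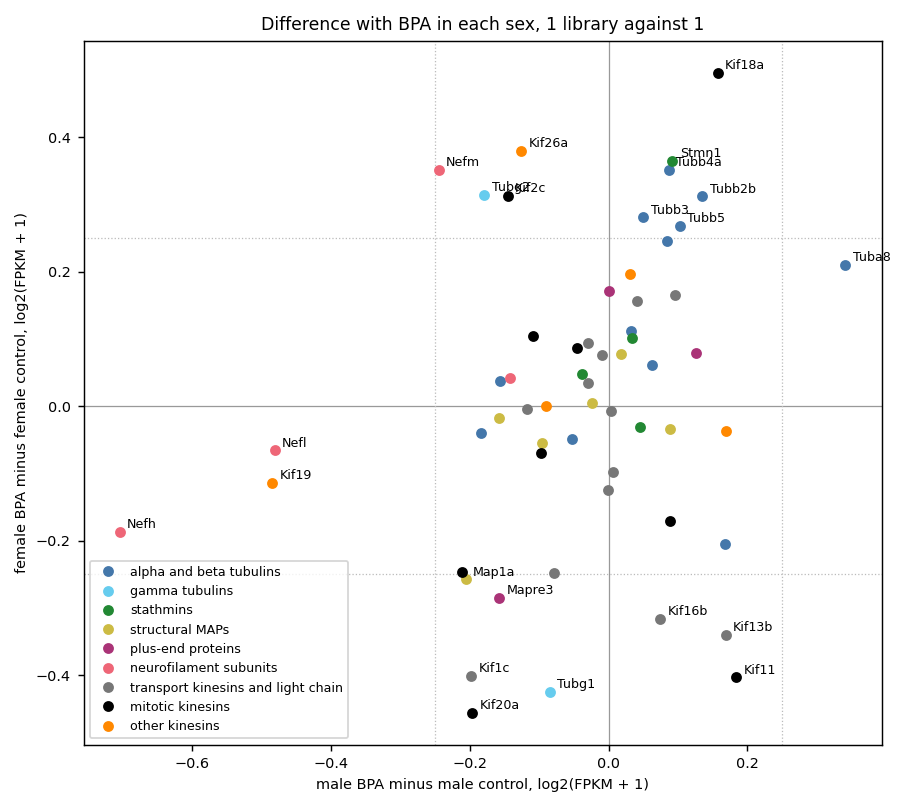
Each of the 58 members by its difference between BPA and control in males (horizontal) and females (vertical), on log2(FPKM + 1), 1 library against 1, coloured by role; dotted lines mark 0.25 in either direction and members beyond them are named. Tubb2b, Tubb3, Tubb4a, Tubb5 and Stmn1 lie at the upper right, Nefh (-0.70 in males) and Nefl (-0.48) at the far left, and Nefm at the upper left with -0.24 in males and 0.35 in females.

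Of the transport kinesins and light chain, Kif5c and Kif5b, the ubiquitous kinesin-1 heavy chain, differed by less than counting error in each sex. Kif5c was at 219.5, 220.1, 229.7 and 229 FPKM, and Kif5b at 34.2, 33.5, 39.1 and 40.1. Klc1 was at 283, 281, 253 and 266 FPKM, with a female ratio of 1.05 (1.01 to 1.10). Kif1b was at 119, 119, 128 and 119 FPKM, with a male ratio of 1.00 (0.978 to 1.03) and a female ratio of 0.934 (0.909 to 0.959). Kif5a, the heavy chain that carries neurofilaments, was at 116, 107, 111 and 110.2 FPKM, with a male ratio of 0.921 (0.889 to 0.953) and a female ratio of 0.997 (0.962 to 1.03). Kif3b and Kif3c, motor subunits of kinesin-2, had both BPA libraries above both controls. They were at 40.1, 41.3, 41.0 and 45.8 FPKM and at 102, 109, 97.9 and 109.9 FPKM. Under quantile normalization this still held for Kif3c but not for Kif3b. Their partner Kif3a was at 70.8, 70.8, 81.5 and 74.7 FPKM, with a female ratio of 0.916 (0.852 to 0.985).

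Kif1c, a motor of the kinesin-3 family that carries vesicles and RNA, had the lowest unadjusted p of the members in the fit without sex as covariate. It was at 11.6, 9.98, 12.7 and 9.40 FPKM, with ratios of 0.861 (0.758 to 0.978) and 0.738 (0.650 to 0.839). The log2 difference over both sexes was -0.30 ± 0.13 (SE; limma, unadjusted p = 0.0556, adjusted p = 0.973). Both BPA libraries lay below both controls, and the female distance was the larger. Kif13a, of the same family, was at 13.3, 12.5, 14.0 and 11.6 FPKM and also did not overlap. Kif13b (3.76, 4.35, 4.72 and 3.52 FPKM) and Kif16b (1.84, 1.99, 2.66 and 1.94 FPKM) were lower with BPA in females, with ratios of 0.746 (0.636 to 0.873) and 0.729 (0.552 to 0.962), and were higher in males by less than counting error.

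The mitotic kinesins rest on 44.0 to 198 fragments each in male control, and their counting intervals are wide. Kif20a, a motor of cytokinesis, was at 6.48, 5.53, 6.17 and 4.23 FPKM, with both BPA libraries below both controls and a female ratio of 0.686 (0.543 to 0.864). Kif11, which pushes the spindle poles apart, was at 3.42, 4.02, 4.99 and 3.53 FPKM, a ratio of 1.18 in males (0.934 to 1.48) and 0.707 in females (0.568 to 0.880). Kif18a, which limits the swing of chromosomes at metaphase, was at 1.69, 2.0, 1.22 and 2.13 FPKM, with a female ratio of 1.75 (1.10 to 2.81). The group had no common direction, with 3 of 9 higher in males and 4 of 9 higher in females. Markers of cycling cells (15 of 16 listed, such as Mki67 and Top2a) summed to 156 and 162 FPKM in the control libraries and 136 and 138 in the BPA libraries, with 3 of 15 higher in males and 2 of 15 in females. In pooled tissue, fewer cells of a type and less RNA per cell cannot be told apart.

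Of the remaining kinesins, Kif19, which shortens microtubules at the tips of motile cilia, was at 7.45, 5.04, 5.07 and 4.61 FPKM, with a male ratio of 0.677 (0.536 to 0.851). As for Nefl, male control stood above the other 3 libraries. Kif26a, a kinesin without motor activity that acts in axon growth, was at 10.3, 9.32, 7.63 and 10.2 FPKM, with a female ratio of 1.34 (1.18 to 1.52), and female control stood below the other 3. Kif2a, which takes tubulin off microtubule ends and prunes axon branches, was at 47.5, 44.6, 53.2 and 53.2 FPKM. Choroid plexus markers (all 8 listed), whose epithelium and neighbouring ependyma bear cilia, summed to 268 FPKM under vehicle and 709.9 under BPA in males and to 9.70 and 46.4 in females, carried mostly by Ttr. Without Ttr, the other 7 summed to 11.3 and 20.4 FPKM in males, where all 7 were higher with BPA, and to 5.74 and 4.0 in females, where 2 were higher and 5 lower (Ttr was set apart after its values were seen). Their part in the kinesin values was not tested.

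The design also allowed both female libraries to be compared with both male ones. No member passed that test (limma, adjusted p under 0.05, against 0.00738% of all rows, which is 1 row), and 7 of 58 had an unadjusted p under 0.05, against 10.6% of all rows. Map6, which protects microtubules from cold, was at 54.4, 48.6, 39.3 and 38.8 FPKM, with the males above the females under either treatment. Its log2 difference, female minus male, was -0.39 ± 0.09 (SE; limma, unadjusted p = 0.00342, adjusted p = 0.256), the smallest p of the members. Tubb2a (-0.27 ± 0.08) and Tubb4b (-0.25 ± 0.08) were likewise lower in females. Kif5b (0.22 ± 0.08), Kif2a (0.20 ± 0.08), Tuba1c (0.20 ± 0.08) and Map2 (0.18 ± 0.07) were higher.

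Both female libraries lay above both male libraries for 13 members, against 19.7% of rows with a gene ID. They lay below both for 14, against 23.7%, and for fewer members with median centring. Stathmins Stmn1, Stmn2 and Stmn4 were among those above, and the stathmin Stmn3, Tuba1b, Tuba4a, Tubb2a, Tubb4b, Nefl and Ina among those below. All 4 neurofilament subunits had a lower mean in females, and 10 of 12 α- and β-tubulins did, with a median of -0.13 against -0.01 over all rows with a gene ID.

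A list of 104 further genes that act on microtubules or filaments (tubulin modifiers, severing enzymes, dynein subunits, tip proteins and others) was examined beside the members. Of these, 96 were listed and 92 were tested, and none had an adjusted p under 0.05 by limma. Without adjustment, 2 were higher and 1 was lower at p under 0.05, where 4.70% of all rows were called. Vash2, which removes the terminal tyrosine of α-tubulin, was at 29.2, 36.4, 28.9 and 40.0 FPKM (log2 difference 0.38 ± 0.11 SE, limma, unadjusted p = 0.00924, adjusted p = 0.973). Katna1, the catalytic subunit of the severing enzyme katanin, was at 6.81, 9.36, 5.73 and 7.96 FPKM. Tubd1, the δ-tubulin of centrioles, was at 2.87, 1.94, 3.46 and 1.85 FPKM.

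In each of these 3 genes the BPA and control libraries did not overlap. That was so for 19 of the 92 genes above the controls (20.7%) and 17 below (18.5%), beside 19.0% and 17.2% of the members and 13.3% and 20.2% of rows with a gene ID. By the size of the combined difference the next were Nedd1, a targeting factor of γ-tubulin, at 1.07, 1.54, 1.44 and 1.89 FPKM, and on the lower side Katnal1, a katanin relative, at 9.39, 8.14, 9.0 and 6.34 FPKM, and Klc4, a kinesin light chain, at 10.6, 7.77, 10.2 and 8.76 FPKM. The median log2 difference of the list was -0.01 in males and 0.04 in females.

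Marker genes of neurons and of the hippocampus were present in all 4 pools, and the summed levels of some other markers differed between the pools. Neuron markers summed to between 1590.2 and 1707 FPKM, and hippocampal pyramidal and granule neuron markers to 342 to 373. Microglia markers summed to 47.0 to 58.7 FPKM, red blood cell markers to 835 to 1043, and thalamus or hypothalamus markers to 6.74 to 9.60. Radial glia and astrocyte markers summed to 1327, 1193, 1320 and 1222 FPKM, with 2 of 10 higher with BPA in males and 3 in females. Oligodendrocyte lineage markers summed to 137, 106, 112 and 94.5 FPKM, with 2 of 8 higher in males and 3 in females. Interneuron markers summed to 297, 289, 268 and 239 FPKM, with 3 of 9 higher in males and 2 in females. These last sums, from the glia on, were lower with BPA in each sex. Vessel and meninges markers (all 10 listed) summed to 141, 131, 219 and 130.1 FPKM, and in females none of the 10 was higher with BPA. No marker listed was at the lowest value in all 4 libraries. The sum of the neuron markers was nearly level between male control and male BPA (1605 and 1590.2 FPKM). It was 1598 in female control and 1707 in female BPA, where Gap43 and Dcx made up most of the difference. Without Gap43 and Dcx, the other 11 summed to 910 FPKM under vehicle and 859 under BPA in males, with 5 higher. In females they summed to 855 and 858 FPKM, with 4 higher and 7 lower (Gap43 and Dcx, too, were set apart after their values were seen). The part of these differences in the values of the members was not tested.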

How the data were processed

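RNA from whole hippocampi, 1 pool of 3 per group, was extracted as total RNA and sequenced. The submitters' processing notes name HISAT 0.1.6, Bowtie2 2.2.5, RSEM without a version, and the genome build rn6, with no role or order. The authors deposited 1 table of FPKM values per library, with 0.01 as the lowest value, and no other unit was used. Near-identical transcripts share fragments, so values of close tubulin copies depend on how these were divided.

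The 4 tables were joined on gene ID, and rows in all 4 with a mean of at least 1 FPKM were tested (13542 rows, 10857 with a gene ID). limma 3.58.1 (eBayes with trend, R 4.3.3) was run on log2(FPKM + 1) without covariates and adjusted by Benjamini-Hochberg over all rows. A pseudocount of 1 understates differences of low rows. Within a sex no test was made, since each side is 1 library. Depth was estimated from low values of rows of 300 to 1500 bases: 94.8% to 98.2% lay within 0.15 of a whole fragment, where even spacing would give 30%. Poisson intervals at 95% from these fragments cover counting error only. The fit and the depth estimate were tested on simulated data. Python 3.11.15 with pandas 2.3.3, numpy 2.4.6, scipy 1.17.1 and matplotlib 3.10.9 was used for the rest. Symbols, neighbours, pseudogene entries and promoters come from RefSeq (GRCr8), all 61 symbols matched, and the windows cover 48 of them.

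Named genes are a list of the main tubulins, stathmins, MAPs, neurofilaments and kinesins, the 5 largest rises and falls in each sex, the 5 largest same and opposite differences, and the 3 largest rises and falls of the further list. The members, lists and tests were chosen with earlier results of these data known. Alternatives were a pseudocount of 0.1, the filter dropped or raised to a mean of 5, median centring, quantile normalization, rows with a gene ID only, sums with new gene models, the other factor as covariate, an unadjusted p, a difference over 1, and leaving out each library.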

Additional observations from a re-analysis of the deposited data

Results flagged for a closer look

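For 2 members the difference with BPA had opposite directions in the sexes, with counting intervals on either side of no difference. Nefm was 0.35 higher in female BPA on the log2 scale and -0.24 in males. Map1b was -0.033 in females and 0.09 in males, but with median centring it was 0.023 in females, the same direction as in males. With 1 library per group and sex, the difference between the sexes was not tested for either gene. No group has the 4 samples that a search for outlying libraries would need.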

How the results depend on the processing

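Over both sexes no member passed an adjusted p under 0.05 under any alternative run with BPA against control or with female against male, and at an unadjusted p 7 members passed for the sexes. Past a difference of 1 the counts within a sex were 0 in each direction. With a mean of at least 5 FPKM, male members above 0.25 went from 1 to 0 and female members below it from 8 to 5, since fewer members remained. Under quantile normalization, members with both BPA libraries above both controls went from 11 to 6. The loss of Tuba1a, Tubb2b and Tubb5 from this count was fixed by the method, since their ranks are equal in both male libraries. The female median of the mitotic kinesins was 0.064 under it in place of -0.070. Under median centring, members with both female libraries below both male went from 14 to 9. Of 717 values under the alternatives for 86 single-gene differences (those tested over both sexes or between the sexes, and those within a sex past 0.25 or past counting error), 709 kept their direction or were 0, and no tested value had an adjusted p under 0.05 (lowest 0.0973). The 8 that reversed were female differences, under median centring for Map1b (0.023), Map4 (0.0025) and Tuba1b (0.0071), and under quantile normalization for Tubb2a (-0.13), Stmn2 (-0.049), Tuba1c (-0.068), Mapt (-0.11) and Klc1 (-0.012). No paired analysis was possible because the labels give no replicate numbers, other than by sex. Sex as a covariate, which sets each BPA library against the control of its sex, gave adjusted p of 0.495 and above for members. With 2 libraries per treatment, differences of 0.5 on the log2 scale were rarely recovered in simulated data (1%), and values of about 1 FPKM rest on few fragments.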

Other observations

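Several kinesin genes are represented by new gene models without a gene ID, which the rule for members leaves out. Kif21a, a motor that slows microtubule growth, matched 8 such models, and their sum was 19.8, 19.2, 24.1 and 21.4 FPKM, the male libraries before the female and control before BPA. The single models moved far more than the sum. A model of 6153 bases was at 8.70 FPKM in male control and 0.91 in male BPA, while a model of 6114 bases was at 1.85 and 9.59. Klc2, a kinesin light chain, matched 2 models with sums of 51.9, 46.2, 41.6 and 40.3 FPKM. Of these the model of 3343 bases was at 19.1, 20.2, 27.9 and 22.6 FPKM and that of 3622 bases at 32.8, 26.1, 13.7 and 17.7. Kif4a, a mitotic kinesin, matched 1 model at 2.41, 2.24, 2.38 and 2.44 FPKM.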
